A study of Mus musculus with 27 samples.

Results

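The TCF/LEF and Wnt axis of T cells was followed in 9 genes, chosen by gene symbol, through the RNA-seq of P14 CD8 T cells, and 9 of 9 were found among the 35275 genes of the deposited tables. They are the transcription factors Tcf7 (which encodes TCF-1), Lef1 and Tcf7l1, the coactivator β-catenin (Ctnnb1), the feedback inhibitor and classical Wnt target Axin2, the ligands Wnt10b and Wnt3, and the T cell regulators Bcl11b and Sox4. The T cell receptor of P14 cells is transgenic and recognizes gp33, a peptide of LCMV, and the mice were described as Rag2-/-. The 9 groups were 3 genotypes (WT P14+, Lin28bTg P14+ and Let-7Tg P14+, here WT, lin28Tg and let-7Tg) at 3 stages, each with 3 biological replicates, 27 libraries in all. In lin28Tg cells a Lin28 transgene keeps let-7 precursors from being processed, and it is active from the thymus onward, so that differences may predate activation. Doxycycline switches on a let-7g transgene in the Col1a1 locus of let-7Tg mice, and control mice drank doxycycline as well. Naive cells (0 h) were untreated. The 12 h cells were activated with anti-CD3 (2 μg/ml) and anti-CD28 (5 μg/ml) antibodies. Day 5 CTLs were raised with irradiated splenocytes, anti-CD3 (2 μg/ml) and later IL-2 (100 U/ml). Doxycycline is listed at 2 μg/ml for the 12 h and day 5 cultures of all 3 genotypes, and the methods state that it was added when necessary. Mice were young adults of both sexes, and cells came from lymph nodes and spleens, with lymph nodes given as the tissue. The number of mice behind each library is not given in the sources used here.

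In the canonical Wnt pathway a secreted Wnt ligand binds a Frizzled receptor and an LRP coreceptor, the destruction complex built on Axin, APC and GSK3 is held back, and β-catenin accumulates and joins TCF/LEF factors on DNA. Without β-catenin the same factors recruit Groucho/TLE corepressors. In T cells TCF-1 and LEF1 are needed for development in the thymus, are high in naive and memory cells and fall in effector cells, while BCL11B maintains T cell identity.

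The sequences that tie these genes to the genotypes and to each other are few. The let-7g miRNA is the product of the transgene, and its mature sequence (RefSeq, GRCm38.p6, chr9:106178846-106178867, plus strand) is shown with its seed, bases 2 to 8, in capitals. The seed is shared by 9 of the 10 mouse let-7 names found in RefSeq with a 5p or single arm.
mmu-let-7g-5p: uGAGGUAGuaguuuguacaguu
The match to this seed, CTACCTC, was searched in the longest annotated 3′ UTR of each member (GENCODE M21 on GRCm38), and 1 of 9 members held it. That member was Tcf7l1, whose match starts at base 353 of a 3′ UTR of 982 bases (chr6:72626992-72627016, minus strand), with the match in capitals.
Tcf7l1 3′ UTR: gatatctctCTACCTCttctcttcc
Of 20943 genes with a 3′ UTR, 8.97% held the match, and a match is a run of letters and not a shown site. Neither the 7 bases nor the shorter TACCTC (23.3% of genes) was found in the 3′ UTRs of Tcf7 (1512 bases), Lef1 (1287 bases), Wnt10b (1764 bases), Axin2, Ctnnb1, Wnt3, Bcl11b or Sox4.

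The letters that TCF/LEF factors prefer, CTTTGAT, with CTTTGAA as a variant, CTTTGTT as another and CTTTGTA as the last, were searched on both strands from 250 bases before to 50 after each annotated start (RefSeq, GRCm38.p6). Of 32851 promoters, 16.9% held a match. Among 14 start sites of the 9 members, 1 of 4 of Lef1, the 1 of Wnt3 and the 1 of Bcl11b held a match, shown in capitals with flanks because these are the promoter windows with the motif.
Lef1 (chr3:131156137-131156163, plus strand, reverse complement of CTTTGTA, 147 bases before the start): aacctcagaaTACAAAGtaggattgca
Wnt3 (chr11:103774183-103774209, plus strand, CTTTGTT, 18 bases after the start): ctcaagtggaCTTTGTTccaactattg
Bcl11b (chr12:108003487-108003513, minus strand, CTTTGAA, 89 bases before the start): aggccaagcaCTTTGAAgaagtgtgag
The letters were not in these windows of Tcf7, Axin2, Wnt10b, Tcf7l1, Ctnnb1 or Sox4, which says nothing of other regions of those genes.

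Reads counted to genes ran from 13862706 to 23591069 a library in naive cells, from 14102910 to 17149842 at 12 h and from 18438313 to 22647839 at day 5. Lin28b stood at a mean of 63.5 ± 6.16 FPKM (SD, n = 3; FPKM divides fragment counts by gene length and by library size) in naive lin28Tg cells, 10.9 ± 1.45 at 12 h and 19.4 ± 4.70 at day 5, with every library of the other genotypes at 0.0590 FPKM or lower. Col1a1, the locus of the let-7 transgene, lay at 9.06 FPKM or higher in all let-7Tg libraries and at 4.93 or lower in all others, so both transgenes matched the labels. The 6 T cell markers and both CD8 markers were expressed in every library. The summed T cell markers of lin28Tg and WT overlapped at every stage. Among them Cd247 was higher in lin28Tg than in WT at every stage (419 to 488 against 138 to 146 in naive cells) and Cd2 was lower (321.5 to 371 against 430 to 452). The CD8 sum was 316 to 354 in lin28Tg against 477 to 564 in WT CTLs. Some lists of other cells differed with genotype. In naive cells the summed FPKM of 9 myeloid markers was 177 to 737 in lin28Tg against 32.8 to 49.95 in WT, and that of 6 erythroid markers 375 to 1494 against 113 to 218, with none of either list at 0. Naive let-7Tg libraries had 17.7 to 53.8 for the myeloid and 1.93 to 35.6 for the erythroid list. At 12 h the erythroid sum was 60.2 to 527 in lin28Tg, 19.8 to 81.4 in WT and 0.896 to 4.15 in let-7Tg cells. The myeloid sum at 12 h was 6.95 to 14.0, 2.97 to 7.74 and 0.615 to 4.41 in the same order. The summed 4 NK markers were at 27.5 to 81.5 in naive lin28Tg against 13.8 to 27.1 in naive WT cells. At day 5 the NK sum was that of Klrb1c, at 60.8 to 158 in lin28Tg against 8.35 to 40.6 in WT CTLs, while in lin28Tg CTLs Klra8 and Klra4 were at 0 and Ncr1 at 0.0305 or lower. The sum of 5 B cell markers was 358 to 448 in naive cells, and 31.9 to 142 in lin28Tg against 190 to 241 in WT CTLs. Most of this sum was Ighm, with Ms4a1 and Pax5 at 0.279 or lower in naive cells. Cd79b went the other way in naive cells, at 27.7 or higher in lin28Tg against 19.6 or lower in WT. At 12 h Cd79b was at 2.43 or higher against 1.46 or lower, and at day 5 these genotypes overlapped. Cd79a was lower in naive lin28Tg (1.43 or lower) than in naive WT cells (1.65 or higher), and overlapped at the later stages. Among 6 stromal markers Pecam1 was lower in naive lin28Tg (38.2 to 38.5) than in naive WT cells (62.4 to 63.7), but Col1a2 (0.703 to 2.40 against 0 to 0.0848), Col3a1 (1.25 to 5.32 against 0.118 to 0.211), Dcn (0.705 to 2.21 against 0.0690 to 0.154) and Cdh5 (0.396 to 1.28 against 0.124 to 0.366) were higher, and Pdgfra was at 0.0517 or lower. Of 3 CD4 T cell markers, Cd4 was higher in naive lin28Tg (9.71 to 56.4) than in WT cells (3.13 to 9.62), and Cd40lg (1.60 to 2.21 against 5.78 to 9.01) and Foxp3 (0.0913 to 0.219 against 0.401 to 0.445) were lower. The part of these cells in the results was not tested, and in bulk RNA fewer cells of a type and less RNA per cell cannot be told apart.

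Tcf7 (ENSMUSG00000000782, chr11:52252371-52283014, minus strand, GRCm38) was the most abundant member in naive cells and, by the ratio of means, the member furthest below WT in lin28Tg CTLs. Naive WT libraries had 675, 727 and 786 FPKM (mean 729 ± 55.7, SD, n = 3), naive let-7Tg libraries 680, 687 and 687, and naive lin28Tg libraries 604, 543 and 614. The lin28Tg libraries were all below those of both other genotypes. After 12 h of activation Tcf7 had dropped in all 3 genotypes, to 118, 92.1 and 93.8 FPKM in WT, 92.7, 77.6 and 100.1 in lin28Tg and 114.5, 84.5 and 86.7 in let-7Tg cells, and the genotypes overlapped. At day 5 lin28Tg separated from WT and let-7Tg, which overlapped each other. WT CTLs held 159.5, 116.5 and 173.3 FPKM and let-7Tg CTLs 237.4, 215.4 and 169.4, whereas lin28Tg CTLs held 8.60, 2.93 and 8.79. The mean in lin28Tg CTLs, 6.77 ± 3.33 FPKM, rested on 130 to 411 reads per library against 4625 to 6733 in WT, and was 22.1-fold below WT, 30.6-fold below let-7Tg and 13.3-fold below the mean of lin28Tg cells at 12 h. The mean of let-7Tg CTLs was 2.18-fold that of let-7Tg cells at 12 h.

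In the test across all genes, on log2(scaled FPKM + 0.5), Tcf7 in lin28Tg CTLs was lower than in WT by 4.44 ± 0.35 (log2 difference -4.44 ± SE; limma, Benjamini-Hochberg adjusted p = 9.67e-04), the 6th smallest p of 13030 genes. Against let-7Tg CTLs the log2 difference was -4.87 ± 0.35 (limma, adjusted p = 1.33e-04). Both calls held in all 14 alternative analyses, with log2 differences from -4.69 to -3.98 against WT. The naive lin28Tg level was also below WT, by a log2 difference of -0.34 ± 0.08 (limma, adjusted p = 0.0103), and held in all 14 alternatives, with an adjusted p of at most 0.0436. At 12 h the lin28Tg difference from WT was -0.18 with a 95% interval from -0.52 to 0.16 (limma, adjusted p = 0.507). In let-7Tg cells Tcf7 was not called against WT at any stage. The let-7Tg difference was -0.14 (interval -0.31 to 0.04) in naive cells and 0.43 (interval -0.36 to 1.22) at day 5, an interval that allows a rise of over 2-fold.

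**Figure D1:**
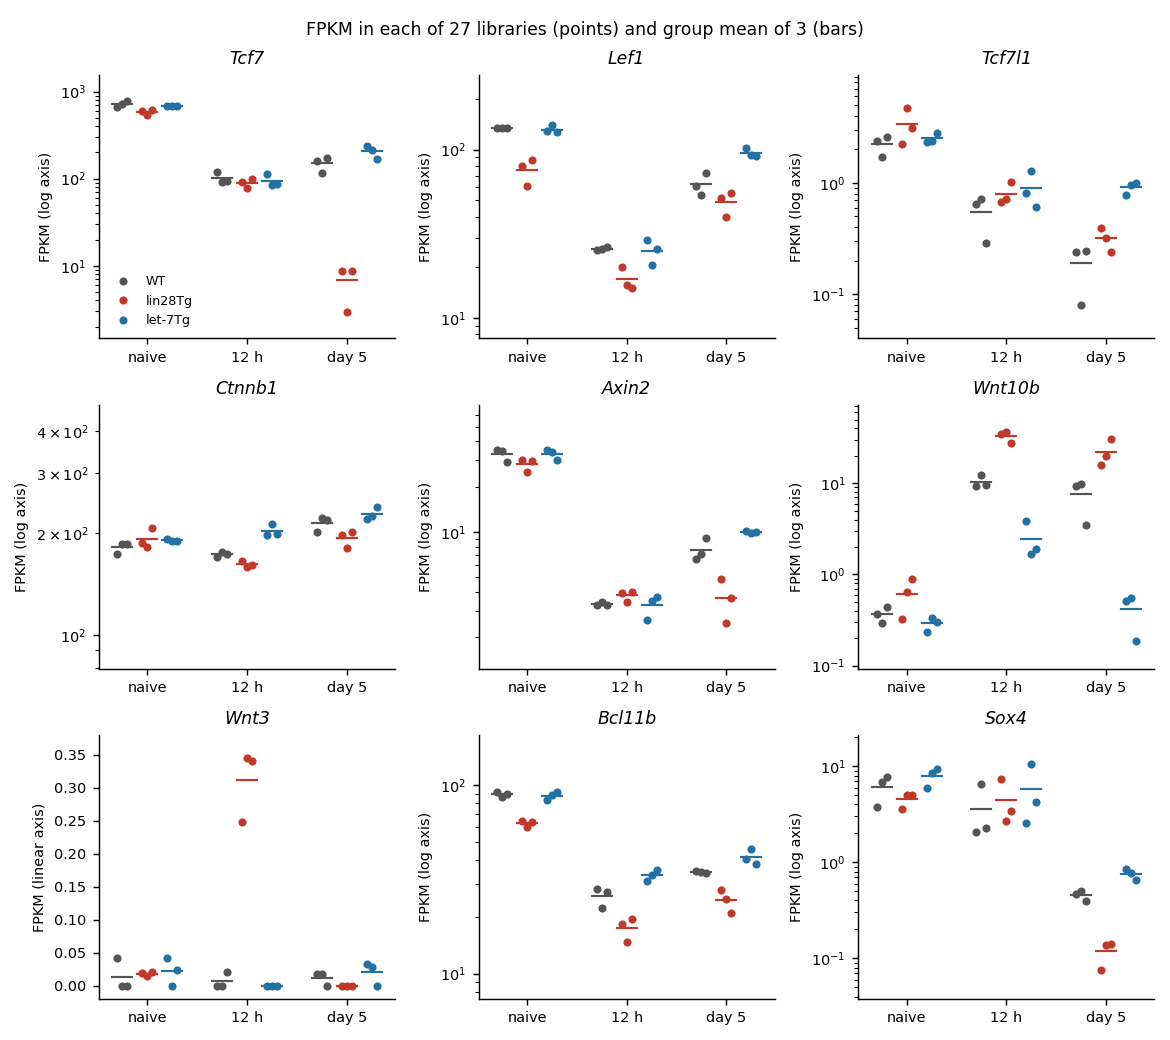
FPKM of the 9 genes in each of the 27 libraries (points) with the mean of each group of 3 (bars), by stage (x axis) and genotype (color). All y axes are logarithmic except that of Wnt3, which is linear because many of its libraries are at 0. Tcf7 in lin28Tg CTLs lies at 2.93 to 8.79 FPKM, apart from all other groups, and Wnt10b at 12 h and day 5 runs from lin28Tg over WT to let-7Tg.

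Lef1 (ENSMUSG00000027985, chr3:131110471-131224356, plus strand), the closest relative of Tcf7 in T cells, followed another course. Naive WT libraries had 134.8, 133.7 and 133.6 FPKM and naive let-7Tg libraries 128.3, 139.5 and 126.7, against 79.6, 61.1 and 87.0 in naive lin28Tg cells. At 12 h the values were 25.5, 25.7 and 26.5 in WT, 29.1, 20.7 and 25.5 in let-7Tg and 20.1, 15.7 and 15.2 in lin28Tg cells, again with lin28Tg below the rest. CTLs had regained part of the naive level, with 60.9, 54.0 and 73.1 FPKM in WT, 102.6, 93.2 and 91.9 in let-7Tg and 51.3, 39.9 and 55.6 in lin28Tg. Here lin28Tg overlapped WT, and let-7Tg lay above both. The lin28Tg log2 difference from WT was -0.86 ± 0.11 in naive cells (limma, adjusted p = 6.11e-04), -0.62 ± 0.15 at 12 h (adjusted p = 0.0308) and -0.31 ± 0.15 at day 5 (adjusted p = 0.278). The 12 h call was lost on leaving out any of WT replicates 1 to 3 or lin28Tg replicates 2 and 3, where adjusted p ran from 0.0637 to 0.135. Against let-7Tg cells Lef1 was lower in lin28Tg cells at the 3 stages, with log2 differences of -0.78 ± 0.11, -0.54 ± 0.15 and -0.89 ± 0.15 (limma, adjusted p = 5.27e-04, 0.0208 and 0.0033). Of these, the 12 h call was lost without lin28Tg replicate 2 or 3 or let-7Tg replicate 1 or 3 (adjusted p 0.0597 to 0.0844). The rise in let-7Tg over WT CTLs, 0.57 ± 0.15, had an adjusted p of 0.117, which became 0.0302 in the fit with the replicate number as a block and 0.042 without WT replicate 3. Thus at day 5 the mean of Lef1 in lin28Tg CTLs was 48.9 ± 8.12 FPKM, that of Tcf7 6.77 ± 3.33.

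Tcf7l1 (ENSMUSG00000055799, chr6:72626378-72789254, minus strand), which encodes a mostly repressive member of the family and is the member with the let-7 seed match printed above, was near the limit of detection. Naive libraries had 2.39, 1.71 and 2.56 FPKM in WT, 2.26, 4.70 and 3.11 in lin28Tg and 2.34, 2.36 and 2.83 in let-7Tg cells. By 12 h the 9 libraries lay between 0.289 and 1.29 FPKM, with overlapping genotypes. WT CTLs had 0.242, 0.0801 and 0.246 FPKM, from 2 to 6 reads a library, lin28Tg CTLs 0.392, 0.322 and 0.238, and let-7Tg CTLs 0.771, 0.966 and 0.993, from 20 to 29 reads. The let-7Tg CTLs were above all others, with a mean 4.81-fold that of WT. At day 5 the gene passed the filter on low values through all 3 let-7Tg libraries and 1 of lin28Tg, so these differences lend no support beyond the levels. The log2 difference of let-7Tg from WT, made smaller by the pseudocount of 0.5, was 1.01 ± 0.15 (limma, adjusted p = 0.0319). This call was lost without WT replicate 1 or 2 or let-7Tg replicate 1 or 2 (adjusted p 0.102 to 0.165). The lin28Tg CTLs were lower than let-7Tg CTLs (log2 difference -0.74 ± 0.15, adjusted p = 0.00839). In naive lin28Tg cells the difference from WT of 0.45 was not called (adjusted p = 0.166), but passed without lin28Tg replicate 1 (0.66, adjusted p = 0.0447).

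Ctnnb1 (ENSMUSG00000006932, chr9:120929216-120960507, plus strand), the coactivator itself, varied least of the expressed members. All 27 libraries lay between 159.1 and 239.4 FPKM. At 12 h let-7Tg cells had 197.5, 212.2 and 198.3 FPKM, above WT with 169.9, 176.1 and 173.2, and lin28Tg cells had 165.2, 159.1 and 161.0, below WT. The groups did not overlap, but the steps were small. The let-7Tg log2 difference from WT of 0.21 ± 0.05 (limma, adjusted p = 0.0469) was lost on leaving out any of the 6 libraries (0.0531 to 0.157) and in the fit with the replicate number as a block (0.0853), whereas the difference of lin28Tg from let-7Tg cells, -0.32 ± 0.05 (adjusted p = 0.00124), kept its call in all 14 alternatives. In naive cells and at day 5 no genotype difference of Ctnnb1 was called, and the lin28Tg difference from WT was 0.05 (interval -0.08 to 0.18) and -0.1 (interval -0.28 to 0.07).

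Axin2 (ENSMUSG00000000142, chr11:108920349-108950783, plus strand), a scaffold of the destruction complex whose transcription rises with Wnt signaling in many cell types, was high in naive cells. Naive libraries had 34.9, 34.6 and 29.0 FPKM in WT, 30.1, 24.8 and 29.7 in lin28Tg and 34.8, 33.7 and 29.96 in let-7Tg cells. At 12 h it stood at 3.30, 3.44 and 3.26 FPKM in WT, 3.96, 3.44 and 4.01 in lin28Tg and 2.60, 3.51 and 3.72 in let-7Tg cells, 9.85-fold, 7.42-fold and 10.0-fold below the naive means. Day 5 values were 6.62, 7.12 and 9.06 FPKM in WT, 10.2, 9.84 and 9.97 in let-7Tg and 4.89, 2.49 and 3.63 in lin28Tg CTLs. The genotypes overlapped until 12 h and stood apart from each other at day 5, with means in the same order as those of Tcf7. The lin28Tg mean at day 5 was 2.07-fold below WT and 2.73-fold below let-7Tg, with log2 differences of -0.95 ± 0.21 (limma, adjusted p = 0.0389) and -1.29 ± 0.21 (adjusted p = 0.00292). Only the second kept its call in all 14 alternatives, and the first was lost without any of WT replicates 1 to 3 or lin28Tg replicates 2 and 3 (adjusted p 0.0799 to 0.122).

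Wnt10b (ENSMUSG00000022996, chr15:98770712-98778150, minus strand), a ligand of the canonical pathway, was low in naive cells and at 12 h and day 5 ran from lin28Tg (highest) over WT to let-7Tg (lowest). In naive cells 7 to 29 reads a library put it at 0.365, 0.297 and 0.445 FPKM in WT, 0.325, 0.644 and 0.881 in lin28Tg and 0.236, 0.335 and 0.302 in let-7Tg cells. These levels overlapped and were near the pseudocount of 0.5, and the lin28Tg difference was called only without lin28Tg replicate 1 (0.52 against WT, limma, adjusted p = 0.043, and 0.68 against let-7Tg, 0.012). At 12 h the WT libraries had 9.24, 12.3 and 9.52 FPKM, the lin28Tg libraries 34.9, 36.4 and 27.6 and the let-7Tg libraries 3.83, 1.68 and 1.92. The groups did not overlap, and the means were 28.1-fold, 53.5-fold and 8.5-fold their naive means. In CTLs the values were 9.33, 9.81 and 3.49 FPKM in WT, 16.0, 19.7 and 30.5 in lin28Tg and 0.508, 0.555 and 0.185 in let-7Tg, the last from 7 to 24 reads. Again no group overlapped another, although WT replicate 3 was well below the other two.

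Relative to WT, Wnt10b in lin28Tg cells was higher by a log2 difference of 1.61 ± 0.25 at 12 h (limma, adjusted p = 0.00454), 3.18-fold between the means, and this call held in all 14 alternatives. In let-7Tg cells it was 4.18-fold lower (log2 difference -1.94 ± 0.25, adjusted p = 0.0128), a call lost only without WT replicate 3 (adjusted p = 0.0622). Between lin28Tg and let-7Tg cells the means differed 13.3-fold at 12 h and 53.1-fold at day 5 (log2 3.55 ± 0.25, adjusted p = 2.97e-05, and 4.66 ± 0.38, adjusted p = 2.00e-04). At day 5 the differences from WT were 1.6 ± 0.38 in lin28Tg (limma, adjusted p = 0.0498) and -3.06 ± 0.38 in let-7Tg CTLs (adjusted p = 0.025). Both calls turned on single libraries. The former was lost without any of WT replicates 1 to 3 or lin28Tg replicates 2 and 3 (adjusted p 0.0624 to 0.165), the latter without WT replicate 1 or 2 or let-7Tg replicate 1 or 2 (0.0928 to 0.12).

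Wnt3 (ENSMUSG00000000125, chr11:103774150-103817957, plus strand) rose above a few reads in 1 of the 9 groups. The lin28Tg libraries at 12 h held 12, 18 and 18 reads (0.248, 0.346 and 0.341 FPKM), while each of the other 24 libraries held 2 reads or fewer. Summed over libraries, 48 reads in lin28Tg at 12 h stood against 1 in WT, 0 in let-7Tg, 3 in naive lin28Tg and 0 in lin28Tg CTLs. Per counted read this was 44.8 times the WT share (95% exact interval 7.67 to 1807, counting error only) and at least 15.2-fold above let-7Tg, taking 3 reads over the group as the floor. Wnt3 passed the filter on low values through these 3 libraries alone, so it had to differ, and its fitted log2 differences of 0.68 ± 0.12 from WT and 0.70 ± 0.12 from let-7Tg are a description with no test. They depended on the scale, with 0.38 from WT at a pseudocount of 1 and 4.38 with voom on reads, and without any 1 of the 3 libraries the gene could not be tested. Wnt1, which lies 11706 bases from Wnt10b on chromosome 15, had the same group on top. It had 0.961, 1.02 and 0.515 FPKM (21 to 41 reads) in lin28Tg cells at 12 h against 0, 0.125 and 0.188 in WT and 0.0530, 0 and 0.0522 in let-7Tg cells. It too passed the filter through those 3 libraries alone.

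Bcl11b (ENSMUSG00000048251, chr12:107910403-108003602, minus strand) was lowest in lin28Tg cells at every stage. Naive libraries had 91.6, 86.5 and 90.0 FPKM in WT, 83.0, 89.1 and 92.5 in let-7Tg and 64.3, 59.96 and 63.9 in lin28Tg cells. At 12 h there were 28.3, 22.3 and 27.2 FPKM in WT, 31.1, 33.4 and 35.3 in let-7Tg and 18.3, 14.7 and 19.4 in lin28Tg cells. CTLs had 34.9, 34.8 and 34.3 in WT, 40.4, 46.0 and 38.2 in let-7Tg and 27.8, 24.9 and 20.8 in lin28Tg. The lin28Tg libraries did not overlap WT or let-7Tg at any stage, and let-7Tg lay above WT at 12 h and day 5. Log2 differences of lin28Tg from WT were -0.53 ± 0.06 (limma, adjusted p = 3.41e-04), -0.57 ± 0.13 (adjusted p = 0.0239) and -0.46 ± 0.11 (adjusted p = 0.0534), the last of which became 0.022 in the fit with the replicate block and 0.0431 without lin28Tg replicate 1. The 12 h call was lost without WT replicate 1 or 3 or lin28Tg replicate 2 (adjusted p 0.0805 to 0.105). Against let-7Tg the differences of -0.47, -0.91 and -0.66 were called at all stages (limma, adjusted p = 3.81e-04, 8.99e-04 and 0.00353).

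Sox4 (ENSMUSG00000076431, chr13:28948919-28953713, minus strand), a transcription factor of the SoxC group, was scattered in naive and 12 h cells and ordered in CTLs. Naive libraries had 3.77, 6.88 and 7.78 FPKM in WT, 3.60, 5.04 and 4.99 in lin28Tg and 5.97, 8.55 and 9.42 in let-7Tg cells. At 12 h there were 2.07, 6.47 and 2.30, then 7.40, 2.71 and 3.39, and 2.59, 10.6 and 4.22 FPKM in the same order of genotypes, a spread within each group larger than any difference between them. In CTLs Sox4 was at 0.467, 0.498 and 0.396 FPKM in WT, 0.0758, 0.139 and 0.141 in lin28Tg (7 to 15 reads) and 0.841, 0.764 and 0.654 in let-7Tg. No day 5 group overlapped another, and the lin28Tg mean was 3.83-fold below WT and 6.36-fold below let-7Tg. The log2 difference from WT, made smaller by the pseudocount of 0.5, was -0.62 ± 0.12 (limma, adjusted p = 0.0269). This call was lost on leaving out any of the 6 libraries (0.0559 to 0.0904). Against let-7Tg the difference was -0.98 ± 0.12 (adjusted p = 9.33e-04), kept in all 14 alternatives. In naive cells the difference from let-7Tg of -0.72 ± 0.26 (adjusted p = 0.0488) was lost without any of the lin28Tg replicates or let-7Tg replicate 2 or 3 (0.0654 to 0.151), and the difference of -0.38 from WT passed only without WT replicate 1 (-0.67, adjusted p = 0.0406).

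The members and the gene lists below were chosen with earlier results of these data known. Their counts beside the share of all genes are therefore a description at every stage and no test of the set. Counted by comparison, the members did not stand out in naive cells. Between lin28Tg and WT, 3 of 8 tested members (Tcf7, Lef1, Bcl11b) were lower and 0 higher at an adjusted p under 0.05, where 33.3% of all 13277 tested genes were called (22.1% to 30.1% with 1 library left out). With lin28Tg replicate 1 left out, 5 members were called. Between lin28Tg and let-7Tg, 3 of 8 (Lef1, Bcl11b, Sox4) were lower where 43.5% of genes were called. Between let-7Tg and WT, 0 of 8 were called with limma, 0 had an unadjusted p under 0.05 and 0.934% of genes were called (0.0906% to 0.454% with 1 library left out). Wnt3 had too few reads to be tested in naive cells or at day 5.

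At 12 h, 4 of 9 members were called between lin28Tg and WT (Wnt10b and Wnt3 higher, Lef1 and Bcl11b lower), where 8.55% of 12239 genes were called (3.11% to 6.55% with 1 library left out). Leaving Wnt3 aside, since it was tested through the lin28Tg libraries alone, 3 of 8 were called, 1 without lin28Tg replicate 2 or WT replicate 1 or 3 and 2 without lin28Tg replicate 3 or WT replicate 2. Between let-7Tg and WT, 2 of 9 were called (Ctnnb1 higher, Wnt10b lower) where 3.42% of genes were. In the fit with the replicate block it was 1, Wnt10b, where 2.02% of genes were. With any library left out the count was 0 to 1, 0 only without WT replicate 3, and the share of all genes ran from 0.041% without WT replicate 3 to 6.27% without let-7Tg replicate 1. Between lin28Tg and let-7Tg, 5 of 9 were called (Wnt10b and Wnt3 higher, Lef1, Ctnnb1 and Bcl11b lower) where 31.2% of genes were (18.7% to 28.3% with 1 library left out). Without Wnt3 this was 4 of 8, and 3 on leaving out lin28Tg replicate 2 or 3 or let-7Tg replicate 1 or 3.

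At day 5, 4 of 8 members were called between lin28Tg and WT CTLs (Wnt10b higher, Tcf7, Axin2 and Sox4 lower), against 4.26% of 13030 genes. With the replicate block the count was 5, with Bcl11b added, against 13.4% of genes. Without the block it was 1, Tcf7, without WT replicate 1, 2 or 3 or lin28Tg replicate 2 or 3. The share of all genes called ran from 1.15% without lin28Tg replicate 3 to 4.66% without lin28Tg replicate 1. Between let-7Tg and WT CTLs, 2 of 8 were called (Tcf7l1 higher, Wnt10b lower) against 0.990% of genes, and 3 with the block (Lef1 added) against 3.95%. The count was 0 without WT replicate 1 or 2 or let-7Tg replicate 1 or 2 and 3 without WT replicate 3, with shares of all genes from 0.0155% (without WT replicate 1) to 2.36% (without WT replicate 3). Between lin28Tg and let-7Tg CTLs, 7 of 8 were called, Wnt10b higher and Tcf7, Lef1, Tcf7l1, Axin2, Bcl11b and Sox4 lower, against 21.8% of genes. The count was 7 with each library left out, against 12.9% to 21.5% of genes, and 7 with the block, against 36.1%. Ctnnb1 was the member not called there (log2 -0.15, interval -0.32 to 0.02). At day 5 Tcf7l1 passed the filter on low values mainly through the let-7Tg libraries, so it lends no support to either count with let-7Tg. Leaving it aside, Wnt10b was called between let-7Tg and WT CTLs, and Lef1 as well with the block. Between lin28Tg and let-7Tg CTLs the calls left were Wnt10b, Tcf7, Lef1, Axin2, Bcl11b and Sox4. The comparisons of lin28Tg and of let-7Tg with WT share the WT libraries, so the values of a member in the 2 comparisons are not independent.

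**Figure D2:**
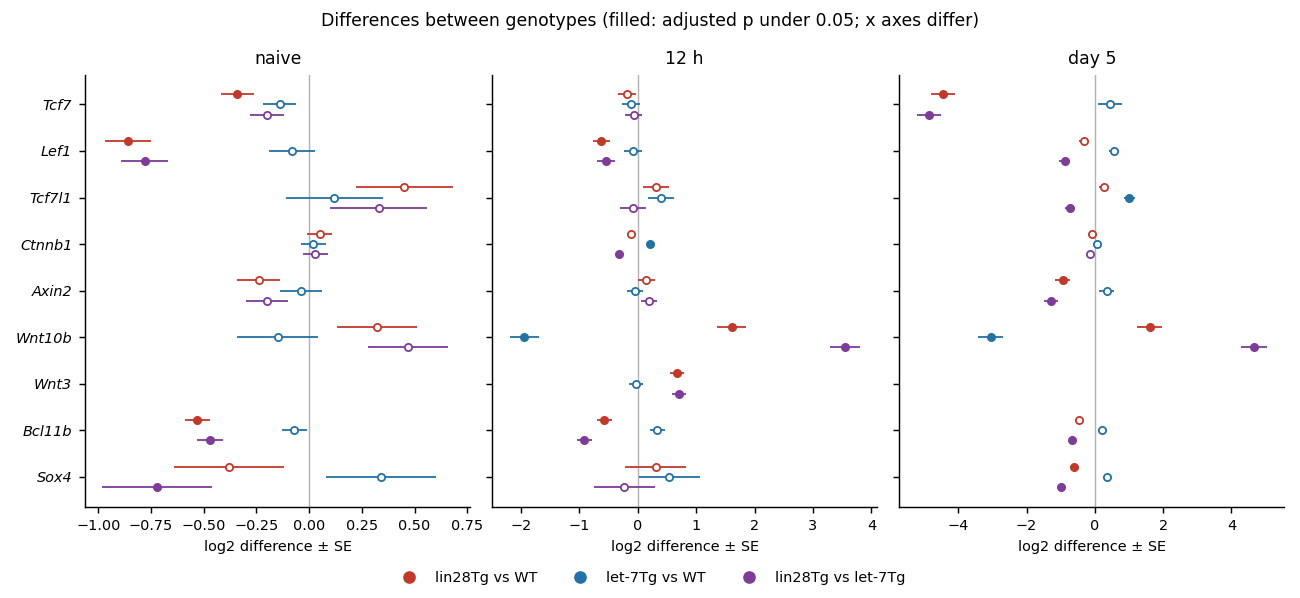
Log2 difference between genotypes (x axis, on log2(scaled FPKM + 0.5), bars show the SE of the model) for each gene (y axis) in naive cells, at 12 h and at day 5, with filled points where the adjusted p was under 0.05. The x axes differ between panels: naive differences stay within about 1 log2 unit, while Tcf7 reaches -4.87 and Wnt10b 4.66 between lin28Tg and let-7Tg CTLs. Wnt3 at 12 h is drawn as a description, and Tcf7l1 at day 5 lends no support beyond its levels.

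From naive to 12 h the TCF/LEF genes fell and Wnt10b rose in every genotype. Stage was also culture and deposited table, so these cannot be told apart. In WT cells 7 of 9 members were called, 2 higher and 5 lower, against 71.0% of 14453 genes. In lin28Tg cells 7 were called (2 higher, 5 lower, 6 of 8 without Wnt3) against 73.6%, and in let-7Tg cells 7 (2 higher, 5 lower) against 69.4%. These counts were near the background. Tcf7 fell in all of them, with log2 differences of -2.63 ± 0.25, -2.49 ± 0.25 and -2.63 ± 0.25 in WT, lin28Tg and let-7Tg cells, and so did Lef1 (-2.14, -1.91 and -2.16) and Axin2 (-2.92, -2.53 and -2.94), all called with limma. Bcl11b fell too (-1.56, -1.61 and -1.17), as did Tcf7l1 (-1.25, -1.37 and -0.96). Wnt10b rose by 3.79, 5.10 and 1.96. Wnt3 differed by 0.70 in lin28Tg cells, a description for the reason given above, and Sox4 was called in none (it passed without 12 h replicate 2 in WT, -1.05, adjusted p = 0.0183, and in let-7Tg cells, -0.89, 0.0387). Ctnnb1 rose by 0.15 in WT (adjusted p = 0.029) and by 0.31 in let-7Tg cells (adjusted p = 6.09e-05), but without scaling between libraries the WT value was -0.07, and the WT call was lost without naive replicate 1 or 12 h replicate 2 or 3 (adjusted p 0.0511 to 0.131).

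From 12 h to day 5 Tcf7 took another course in lin28Tg than in WT cells. Between let-7Tg and WT cells its change was not called as different in the interaction test given below. Tcf7 fell by 3.83 ± 0.25 log2 units in lin28Tg cells (limma, adjusted p = 1.19e-11), rose by 1.00 ± 0.25 in let-7Tg cells (adjusted p = 0.00121) and differed by 0.44 ± 0.25 in WT cells (adjusted p = 0.126). Lef1 rose in all 3 genotypes, by 1.14, 1.44 and 1.80 in WT, lin28Tg and let-7Tg cells. Axin2 rose by 0.97 in WT and 1.38 in let-7Tg cells, with -0.14 in lin28Tg cells (adjusted p = 0.475). Sox4 fell in all 3 (-2.05, -2.99 and -2.22), and Wnt10b fell by 1.74 in let-7Tg cells (adjusted p = 3.17e-05), with -0.65 in WT and -0.66 in lin28Tg cells not called (0.0654 and 0.0624). The WT value of Wnt10b passed without day 5 replicate 1 or 2 (0.0325 and 0.0256) and the lin28Tg value without day 5 replicate 3 (0.0184). In WT cells 6 of 9 members were called (4 higher, 2 lower) against 67.3% of genes, in lin28Tg cells 7 (3 higher, 4 lower, 6 of 8 without Wnt3) against 66.5%, and in let-7Tg cells 5 (3 higher, 2 lower) against 67.1%. Ctnnb1 rose by 0.19 in WT (adjusted p = 0.00675) and by 0.20 in lin28Tg cells (adjusted p = 0.00498), with 0.05 in let-7Tg cells not called (0.492, and 0.17 with 0.013 without scaling between libraries). Wnt3 went from 48 to 0 summed reads in lin28Tg cells. The rise of Bcl11b by 0.31 in WT cells (adjusted p = 0.0139) was lost without 12 h replicate 2 (0.142), and the fall of Tcf7l1 in WT cells by 0.65 without day 5 replicate 2 (adjusted p = 0.0529).

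**Figure D3:**
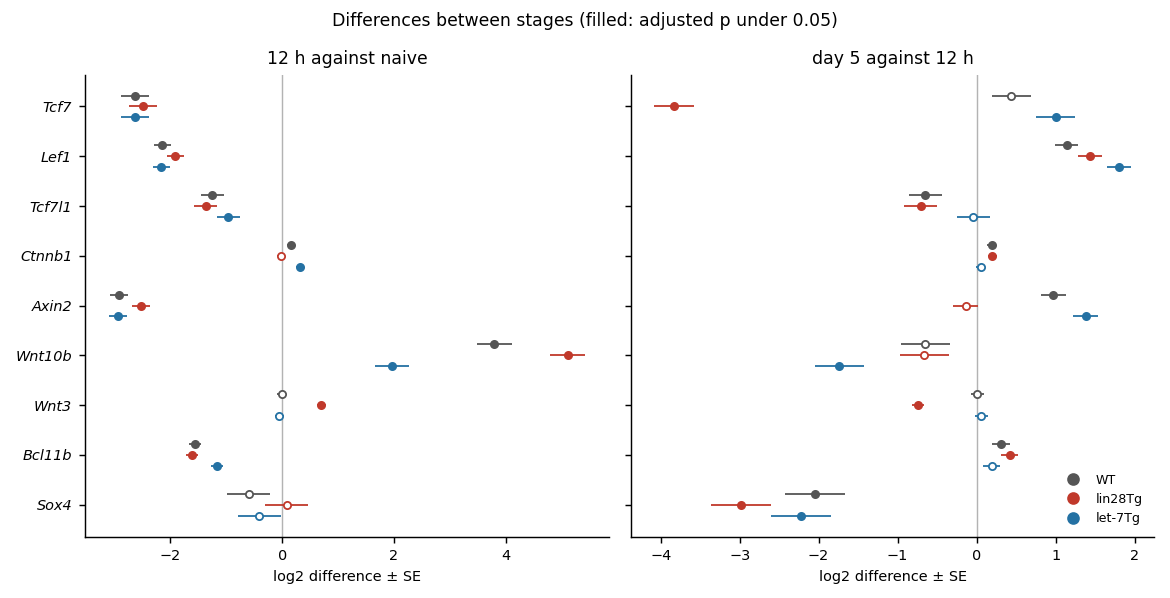
Log2 difference between stages (x axis, on log2(scaled FPKM + 0.5), bars show the SE) for each gene (y axis) within WT, lin28Tg and let-7Tg cells, filled where the adjusted p was under 0.05. Left, 12 h against naive, where Tcf7 lies between -2.63 and -2.49 in all genotypes. Right, day 5 against 12 h, where Tcf7 fell by 3.83 in lin28Tg cells alone among the 3 genotypes.

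Whether a genotype difference changed with stage was tested directly as an interaction in the model of all 27 libraries. For lin28Tg against WT between day 5 and 12 h, 3 of 9 members were called, all lower, against 6.50% of genes, and 2 of 8 without Wnt3. Tcf7 changed by -4.26 (limma, adjusted p = 2.49e-07) and Axin2 by -1.10 (adjusted p = 0.004). Between day 5 and naive, 3 of 9 were called (Wnt10b higher, Tcf7 and Axin2 lower) against 15.1%. Tcf7 changed by -4.12 (adjusted p = 1.39e-07), while Axin2 (-0.72, adjusted p = 0.0339) was lost without WT naive replicate 3, lin28Tg naive replicate 1 or 3, WT day 5 replicate 3 or lin28Tg day 5 replicate 2 or 3 (0.0517 to 0.114). Wnt10b (1.3, adjusted p = 0.0474) was lost in 13 of 19 alternatives, among them leaving out WT naive replicate 1, 2 or 3, lin28Tg naive replicate 1 or 2, WT day 5 replicate 3 or lin28Tg day 5 replicate 2 or 3 (0.068 to 0.143), while Lef1 (0.53, adjusted p = 0.0957) passed without lin28Tg naive replicate 3, WT day 5 replicate 3 or lin28Tg day 5 replicate 2 (0.0331 to 0.0438). The count was 1 without WT naive replicate 3, lin28Tg naive replicate 1 or lin28Tg day 5 replicate 3. Between 12 h and naive, 1 of 9 was called against 8.12%, which was Wnt3, and 0 of the other 8 with limma, of which 2 had an unadjusted p under 0.05.

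For let-7Tg against WT, 1 of 9 members was called between day 5 and naive (Wnt10b, -2.92, limma, adjusted p = 0.00211) against 0.436% of genes. Between 12 h and naive 0 of 9 were called with limma against 0.0761%, with 2 at an unadjusted p under 0.05, and between day 5 and 12 h 0 of 9 against 1.43%, also with 2 unadjusted. In the latter, Lef1 and Wnt10b passed without WT day 5 replicate 3 (0.80, adjusted p = 0.0383, and -1.52, adjusted p = 0.0308), and in the former Wnt10b passed without let-7Tg 12 h replicate 1 (-2.15, adjusted p = 0.0285).

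Around the members, 105 genes of the Wnt pathway were listed as ligands, secretion factors, receptors, extracellular modulators, destruction complex, and β-catenin with its factors and cofactors. All but Tle5, 104, were found, and 7 are members. In naive and 12 h cells the share called was near that of all genes. Without the members, 18 of 51 (35.3%) were called between naive lin28Tg and WT cells, 1 of 51 (1.96%) between naive let-7Tg and WT and 22 of 51 (43.1%) between naive lin28Tg and let-7Tg, and 2 of 49 (4.08%, of which 1 was Wnt1), 1 of 49 (2.04%) and 13 of 49 (26.5%) at 12 h. At day 5 they were 9 of 52 (17.3%, 3 higher and 6 lower) between lin28Tg and WT, 2 of 52 (3.85%) between let-7Tg and WT and 17 of 52 (32.7%, 5 higher and 12 lower) between lin28Tg and let-7Tg, beside the 4.26%, 0.990% and 21.8% of all genes given above. With the replicate block they were 12 of 52 (23.1%), 4 of 52 (7.69%) and 20 of 52 (38.5%), beside 13.4%, 3.95% and 36.1% of all genes. The median log2 difference of the pathway genes with the members was -0.05, 0.06 and -0.07 in these day 5 comparisons, and that of all tested genes -0.01, 0 and -0.01.

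**Figure D4:**
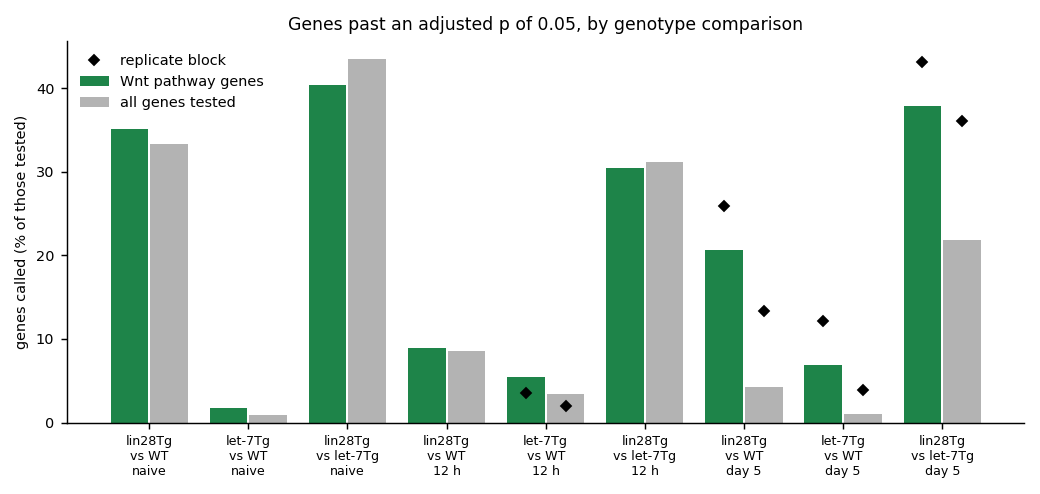
Share of tested genes called at an adjusted p under 0.05 (y axis, %) among Wnt pathway genes including the members (green) and among all genes tested (gray), in 9 genotype comparisons (x axis), with diamonds for the fit with the replicate block where replicate numbers paired the libraries. The shares are alike in naive and 12 h cells, and at day 5 the pathway genes have 20.7% against 4.26% (lin28Tg and WT), 6.9% against 0.990% (let-7Tg and WT) and 37.9% against 21.8% (lin28Tg and let-7Tg), which with the block were 25.9% against 13.4%, 12.1% against 3.95% and 43.1% against 36.1%.

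Among the pathway genes called between lin28Tg and WT CTLs, the largest fall after that of Tcf7 was in Wls, the carrier that brings Wnt proteins to the cell surface, with a log2 difference from WT of -1.73 ± 0.17 (limma, adjusted p = 0.00236) and from let-7Tg of -1.96 (adjusted p = 2.33e-04). Frat2 and Frat1, which bind GSK3 and relieve the destruction complex, were lower, with log2 differences of -1.34 ± 0.28 (adjusted p = 0.0332) and -1.31 ± 0.30 (adjusted p = 0.0449). Bcl9l, a β-catenin coactivator, was lower (-0.69, adjusted p = 0.0109), as were the corepressor Tle1 (-0.59, adjusted p = 0.0305) and the Dickkopf receptor Kremen1 (-0.51, adjusted p = 0.0496). Jup, the β-catenin relative plakoglobin, was higher by 2.36 ± 0.38 (adjusted p = 0.0142), as were the casein kinase Csnk1e by 0.68 (adjusted p = 0.00684) and the inhibitor Nkd1 by 0.56 (adjusted p = 0.0313). In let-7Tg CTLs the receptors Fzd6 (0.64, adjusted p = 0.0403) and Ryk (1.01, adjusted p = 0.0449) were higher than in WT.

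By list, between lin28Tg and WT CTLs 1 of 2 tested ligands was higher and the 1 tested secretion gene lower, 0 of 8 receptors and coreceptors were called, 1 of 5 modulators was lower, 2 of 22 destruction complex genes were higher and 3 lower, and of 20 genes of the β-catenin and cofactor list 1 was higher and 3 lower. Medians of the last 4 lists were -0.01, -0.39, 0.02 and -0.10. Of 13 tested classical Wnt targets, 1 was higher (Nkd1) and 2 lower (Tcf7 and Axin2, both members), with a median of 0.11. All of these counts stand beside the 4.26% of all genes called in this comparison.

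At 12 h Jup was higher in lin28Tg than in WT cells (1.31, limma, adjusted p = 0.0289), as were, among classical targets, the survivin gene Birc5 (2.66, adjusted p = 0.00162), Cd44 (0.92, adjusted p = 6.01e-04) and Jun (1.30, adjusted p = 0.0114), with Lef1 the 1 lower of 13 and a median of 0.10. Of all genes, 8.55% were called in this comparison. In let-7Tg cells the receptor Fzd9 (-0.96, adjusted p = 0.0275), Myc (-0.51, adjusted p = 0.0359) and Cd44 (-0.39, adjusted p = 0.0466) were lower than in WT. Of 4 tested ligands, Wnt3 and Wnt1 were tested through the lin28Tg libraries alone, and of the others Wnt10b was higher in lin28Tg cells than in WT.

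In naive lin28Tg cells 33.3% of all genes were called against WT, and myeloid and erythroid markers were raised as given above. Of 12 classical targets 4 were higher and 3 lower than in WT, with a median of -0.03. Birc5 (3.27, limma, adjusted p = 3.68e-05), Cd44 (1.48, adjusted p = 0.00159) and the cyclin gene Ccnd1 (2.33, adjusted p = 0.00285) led. The ligands Wnt11 (1.31, adjusted p = 0.003) and Wnt5b (-0.97, adjusted p = 0.00417) moved in opposite directions. Of the 21 tested genes of the β-catenin and cofactor list 3 were higher, namely the β-catenin inhibitor Ctnnbip1 (2.05, adjusted p = 0.00431), Jup (1.78, adjusted p = 0.00471) and Ctbp2 (1.46, adjusted p = 0.0166), and 6 were lower, and of the 21 destruction complex genes 0 were higher and 3 lower. Naive let-7Tg cells differed from WT in Tle3 (-0.42, adjusted p = 0.0316) and Myc (-0.62, adjusted p = 0.0165). What part the other cells had in these naive differences was not tested.

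Among 15 transcription factors of T cell identity, a list that holds Tcf7, Lef1 and Bcl11b, 8 were lower and 1 (Zbtb7b, 1.96, limma, adjusted p = 0.00258) higher in naive lin28Tg than in WT cells, where 33.3% of all genes were called and the myeloid, erythroid and NK marker sums were higher, with a median of -0.34 beside -0.01 for all genes. The part of those cells in this count was not tested. The lower ones included Tox (-0.62, adjusted p = 4.42e-04) and Ets1 (-0.56, adjusted p = 5.62e-04). At 12 h, where 8.55% of genes were called, 5 were lower and 2 higher, with Ets1 at -0.63 (adjusted p = 6.52e-04) and Tox at -0.79 (adjusted p = 0.00916) below and Gata3 at 1.00 (adjusted p = 0.02) and the E protein gene Tcf3 at 0.46 (adjusted p = 0.00938) above WT. In CTLs 2 were lower than in WT (4.26% of genes called), Tcf7 and Ets1 (-0.64, adjusted p = 0.0246), with a median of -0.24, and 8 were lower than in let-7Tg (21.8% of genes called), with 0 higher and a median of -0.33. Ets1 was thus below WT in lin28Tg cells at all 3 stages. In let-7Tg cells 0 of 15 were called in naive cells and CTLs, and Ikzf3 (0.79, adjusted p = 0.0398) and Ets1 (0.27, adjusted p = 0.0478) were higher at 12 h.

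A list of 6 genes reported elsewhere as targets of TCF-1 in CD8 T cells (Eomes, Bcl6, Id3, Cd4, Foxp3 and Prdm1) was read beside Tcf7. Between lin28Tg and WT CTLs Tcf7 was 22.1-fold lower and 4.26% of all genes were called. Of the 6 genes 0 were called with limma, and 2, Id3 and Prdm1, had an unadjusted p under 0.05. The median log2 difference of the 6 was 0.10 beside -0.01 for all genes. The list was not split by the direction in which TCF-1 acts, so this median does not show whether these genes responded. Between lin28Tg and let-7Tg CTLs 2 of 6 were called, where 21.8% of all genes were. Eomes (1.95, limma, adjusted p = 0.00767) was higher and Id3 (-2.06, adjusted p = 0.00453) lower. In naive lin28Tg cells, where 33.3% of all genes were called and myeloid markers and Cd4, itself listed as a CD4 T cell marker, were raised as given above, 3 were higher than in WT, Prdm1 by 1.01 (limma, adjusted p = 0.00427), Eomes by 1.17 (adjusted p = 0.0072) and Cd4 by 2.35 (adjusted p = 0.0133), and Foxp3 was lower (-0.49, adjusted p = 0.0246). Of the SoxC genes and Sox13, 3 of 4 could be tested, and besides Sox4 the calls against WT were Sox12 in naive lin28Tg cells (0.69, adjusted p = 0.00447) and Sox13 in lin28Tg cells at 12 h (1.02, adjusted p = 0.0269).

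Across the 27 libraries, which share genotype, stage and culture, members could be ordered by likeness, given as a description. On log2(scaled FPKM + 0.5), Axin2 and Bcl11b had a Pearson r of 0.91, Lef1 and Axin2 of 0.83, Tcf7 and Axin2 of 0.80, Tcf7 and Lef1 of 0.52, and Wnt10b and Bcl11b of -0.89. Of 11450 genes tested at all 3 stages, those most like Tcf7 over the 27 libraries were Aff3 (r = 0.97), Ms4a6b (0.954), Dapl1 (0.946) and Asap1 (0.935). Those most like Lef1 were Prkcq (0.978), Itga6 (0.973), Card6 (0.967) and Slc44a2 (0.965), and those most like Wnt10b were Pak6 (0.91), Hmga1 (0.906), Lipg (0.90) and Serpinb9 (0.90). No gene was among the 4 of more than 1 of these members.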

How the data were processed

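RNA of 27 libraries (3 genotypes, 3 stages, 3 biological replicates) was sequenced at a company after TRIzol lysis. Per the submitters' processing notes and the methods, reads were aligned with TopHat2 2.0.9 and Bowtie2 2.0.6 to GRCm38 (mm10) and counted per gene with HTSeq 0.6.1. The annotation release and the strand setting are not given in the sources used here, so reads of genes that overlap on opposite strands cannot be told apart. The authors deposited 1 table per stage with FPKM per library, without scaling between libraries. Other columns hold group means and the authors' own comparisons (fold changes, p-values and adjusted p-values) and were not used. Reads were recovered from the FPKM steps: 100.0% of 462839 values above 0 in 25144 genes were whole reads within 0.05 reads. The count model first planned for such reads was not the main test, because the deposited unit is FPKM.

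The recovered totals were 13862706 to 23591069 reads a library, and intervals and floors given for reads cover counting error only. A gene entered a fit if at least 3 libraries reached the level that 10 reads give at median depth and if its reads over the fitted libraries summed to 15 or more. FPKM values were scaled between libraries by trimmed means of log ratios (30% of ratios, 5% of levels). The factors were 1.05 to 1.127 in naive cells, 0.899 to 1.008 at 12 h and 0.943 to 1.044 at day 5. Genotypes were compared in 1 model per stage with 9 libraries, stages and interactions in 1 model of 27, by limma (version 3.58.1, R 4.3.3) on log2(scaled FPKM + 0.5), with an intensity trend and Benjamini-Hochberg adjustment over all genes tested. The threshold was 0.05. The day 5 genotype fit was run on simulated reads, with the same dispersion for all genes and no pairing of replicates. That simulation says nothing of how far the real libraries vary. Levels printed are unscaled FPKM with SD, and SE is that of the model. Folds between means are of unscaled FPKM, and near the pseudocount of 0.5 the fitted log2 differences are smaller than those folds. P-values measure the spread between these libraries.

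The members and gene lists were chosen with earlier results of these data known, and 1 gene of a gene list and 1 of a marker list are not reported here. By rule, the members were the genes named in all comparisons, where some that were not called are given only within counts, and from each list up to 3 called genes in each direction with the smallest adjusted p per genotype comparison, of which the text gives a part. Likeness was a Pearson correlation over 27 libraries. Replicate numbers were taken to pair the libraries at day 5, where all 9 correlations of same-numbered deviations from group means exceeded 0.1 (0.246 to 0.714, against -0.533 to 0.143 for other numbers), and those of let-7Tg and WT at 12 h, where all 3 did (0.237, 0.549 and 0.433). Alternatives were no scaling, median of ratios, pseudocounts of 0.1 and 1, no filter, a replicate block, only the 6 libraries compared, each library left out and, chosen after the data were seen, voom on recovered reads. No replicates agreed within sampling noise. Proteins were not analysed here.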

Additional observations from a re-analysis of the deposited data

Results flagged for a closer look

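In 8 cases the difference of a member between genotypes was called as changed between stages, by an interaction term in limma over all 27 libraries with Benjamini-Hochberg adjustment. For lin28Tg against WT these were 1 of 9 members between 12 h and naive cells, beside 8.12% of all genes. Between day 5 and naive cells they were 3 of 9 beside 15.1%, and between day 5 and 12 h 3 of 9 beside 6.50%. For let-7Tg against WT it was 1 of 9 between day 5 and naive cells, beside 0.436%.

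Tcf7 accounted for 2 of these cases. Its lin28Tg difference from WT changed by -4.12 between day 5 and naive cells (adjusted p = 1.39e-07) and by -4.26 between day 5 and 12 h (adjusted p = 2.49e-07), and at day 5 it was lower in 3 of 3 lin28Tg libraries than in any WT library. Axin2 changed the same way by -0.72 (adjusted p = 0.0339) and -1.10 (adjusted p = 0.004). The former call was lost in 6 of 12 fits with 1 library left out (limma, adjusted p 0.0517 to 0.114). Wnt3 changed by 0.71 between 12 h and naive cells (adjusted p = 4.98e-04) and by -0.75 between day 5 and 12 h (adjusted p = 1.07e-04), from 12 to 18 reads in each of 3 lin28Tg libraries at 12 h. Because Wnt3 entered the fit through those libraries alone, these 2 values had to be large and are a description, not support for a difference.

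Wnt10b changed between day 5 and naive cells by 1.3 for lin28Tg against WT (adjusted p = 0.0474) and by -2.92 for let-7Tg against WT (adjusted p = 0.00211). Its naive level of 7 to 29 reads a library lies near the pseudocount of 0.5, and with voom on the recovered reads these 2 values had adjusted p of 0.543 and 0.317.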

How the results depend on the processing

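Of the values of single genes, 1 reversed, that of Ctnnb1 between 12 h and naive WT cells, from 0.15 to -0.07 without scaling (adjusted p = 0.296). Without scaling the median of all genes between 12 h and naive moved from -0.045 to -0.183 in WT, -0.077 to -0.238 in lin28Tg and -0.041 to -0.184 in let-7Tg cells. The share of higher calls among all genes moved from 33.1% to 51.0% (naive let-7Tg and WT), 62.0% to 72.4% (day 5 let-7Tg and WT) and 48.1% to 35.0% (day 5 lin28Tg and let-7Tg).

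Counts of members called changed as follows, and where fewer samples or genes do not account for it the cause was not tested. In naive cells lin28Tg and let-7Tg went from 3 to 4 without scaling and 2 without the filter. At 12 h lin28Tg and WT went from 4 to 3 without the filter, and between let-7Tg and WT 2 became 1 with median of ratios, no filter, the replicate block, only 6 libraries and voom. Between lin28Tg and WT at day 5, 4 became 3 with a pseudocount of 0.1, 2 without the filter, 5 with the block and 1 with 6 libraries, between let-7Tg and WT at day 5, 2 became 3 with the block and 0 with 6 libraries and with voom, and between lin28Tg and let-7Tg at day 5, 7 became 8 without scaling. Stage counts moved by at most 1, except for let-7Tg cells between day 5 and 12 h, from 5 to 7 without scaling. Among interactions, lin28Tg between 12 h and naive went from 1 to 2 with a pseudocount of 1, lin28Tg between day 5 and naive from 3 to 1 without the filter and 2 without scaling, with a pseudocount of 0.1, the block or voom, and let-7Tg between day 5 and naive from 1 to 0 with voom. Fits of only 6 libraries do not apply to stages or interactions.

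With 1 library left out, the counts ran from 3 to 5, 0 to 0 and 2 to 3 in naive cells (lin28Tg and WT, let-7Tg and WT, lin28Tg and let-7Tg), from 1 to 3, 0 to 1 and 3 to 5 at 12 h and from 1 to 4, 0 to 3 and 7 to 7 at day 5. Interactions ran from 0 to 1, 1 to 3 and 2 to 3 for lin28Tg and 0 to 1, 1 to 1 and 0 to 2 for let-7Tg (12 h and naive, day 5 and naive, day 5 and 12 h), and stage comparisons from 5 to 8.

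With 1 library left out, the genes called over all between let-7Tg and WT ran from 12 to 60 in naive cells, 5 to 763 at 12 h and 2 to 306 at day 5, and between lin28Tg and WT from 2924 to 3953, 376 to 795 and 149 to 603. Over all genes, calls also depended on the fit where few were made. Between let-7Tg and WT 124 genes were called in naive cells, 39 without the filter, 81 with the block and 51 with voom. At 12 h 418 were called, 98 without the filter, 247 with the block and 34 with 6 libraries. At day 5 129 were called, 73 with a pseudocount of 0.1, 54 without the filter, 515 with the block, 1 with 6 libraries and 55 with voom. Between lin28Tg and WT at day 5, 555 were called, 323 without the filter, 1750 with the block, 225 with 6 libraries and 555 with voom, and between lin28Tg and let-7Tg 2838, or 4705 with the block. With voom 4251, 5752, 1100, 343, 3917 and 2937 genes were called in the other genotype comparisons (naive lin28Tg and WT, naive lin28Tg and let-7Tg, then 12 h in the order above, then day 5 lin28Tg and let-7Tg).

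Replicate numbers did not pair the libraries in naive cells (correlations -0.251 to 0.475, with 3 of 9 over 0.1), nor those of lin28Tg with either other genotype at 12 h, although the block there holds all 9 libraries. The block changed the calls of Bcl11b and Lef1 at day 5, of Ctnnb1 at 12 h and of Wnt10b in the interaction of lin28Tg between day 5 and naive (a call it ended), and of no other member. Depth limits Tcf7l1, Wnt3 and Sox4 in CTLs, and Wnt10b in naive cells and in let-7Tg CTLs, which rest on few reads.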
